A study of Mus musculus with 12 samples.

Results

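The genotype by time interaction asks, gene by gene, whether the response of T cells to stimulation differs when Sirt2 is missing. It is the log2 change from 0 h to 24 h in Sirt2-/- cells minus the same change in wild-type cells, so that a value above 0 is a higher 24 h to 0 h ratio in Sirt2-/- cells. All 12 libraries of the series entered it, in 4 groups of 3. CD4+ T cells were taken from mouse spleen by depletion of other cells, with a purity above 95% by flow cytometry per the labels, from wild-type C57BL/6J mice (WT) or Sirt2-/- mice (KO). They were used directly (0 h) or after 24 h on plate-bound antibody to CD3 (clone 145-2C11, 5 µg/ml), and each group is named by genotype and time (WT 0 h, for example). The sources used here give neither the removed part of Sirt2 nor the age of the mice, and they do not say whether the 3 libraries of a group came from separate mice. Each p-value is thus set against variation among libraries that may be no more than technical. The 0 h cells were not cultured, so effects of stimulation and of culture cannot be told apart in the response.

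Antibody to CD3 cross-links the T cell receptor complex and starts calcium, MAP kinase and NF-kappaB signals. Resting T cells then switch on transcription factors such as Myc and Irf4 and the interleukin 2 receptor, build ribosomes, take up amino acids and glucose, and turn down genes of rest before they divide. Sirt2 encodes an NAD-dependent deacetylase, found mostly in the cytoplasm, which acts on tubulin, histone H4 and metabolic enzymes. A gene can differ between genotypes by the same factor before and after stimulation, and then its interaction is 0 although its level differs.

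The libraries held 3.63 to 10.0 megareads in genes, and the KO 24 h group was the shallowest with a mean of 4.61 megareads. The ribosomal RNA precursor Rn45s took a mean share of 14.5% (WT) and 14.7% (KO) of gene reads before stimulation and 9.12% (WT) and 8.03% (KO) after it. Levels are given as CPM, which are counts scaled to the library's reads in genes multiplied by its TMM factor. These factors lay between 0.902 and 0.947 at 0 h and between 1.03 and 1.12 at 24 h. Sirt2 itself had 74.6 ± 9.42 CPM (mean ± SD, n = 3 here and throughout) at 0 h and 67.2 ± 7.92 CPM at 24 h in WT. In KO it had 12.4 ± 3.59 and 13.2 ± 5.6 CPM, and its interaction was 0.21 (95% interval -0.36 to 0.77). Sirt2 shares exon bases with Nfkbib, so with no stated strand some of its reads are uncertain. The 8 CD4 T cell markers summed to between 5836 and 6896 CPM per library at 0 h and between 2720 and 3114 CPM at 24 h. The 10 B cell markers summed to 19.7 to 33.8 CPM at 0 h and 4.39 to 11.4 CPM at 24 h, and the 2 CD8 T cell markers to 17.3 to 18.5 CPM in WT 0 h and 30.8 to 35.8 CPM in KO 0 h. After stimulation the CD8 T cell sum was 8.09 to 11.02 (WT) and 8.79 to 14.7 (KO) CPM. Nearly all of this sum was Cd8b1, whose group mean before stimulation was 17.4 (WT) and 31.5 (KO) CPM. Cd8a then had 0.68 (WT) and 1.16 (KO) CPM, from 15 and 22 reads, and was not among the tested genes. The difference in the sum between genotypes at 0 h is therefore mostly that of Cd8b1. The 5 natural killer cell markers summed to at most 31.3 CPM at 0 h and at most 1.72 CPM at 24 h, with Klra8 at 0 in every library. The 11 myeloid markers in the files summed to at most 25.6 CPM in any library, with Clec9a at 0 throughout, and the 9 red cell and platelet markers to at most 5.83 CPM, with both globin families at 0. In bulk libraries fewer cells of a type and less RNA per cell cannot be told apart.

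Stimulation changed a large share of genes in each genotype, and 1 gene had a response that differed between them. Of 10981 genes tested, 4470 (40.7%) changed in WT, 2217 higher and 2253 lower, and 4435 (40.4%) changed in KO, 2129 higher and 2306 lower (edgeR quasi-likelihood test, Benjamini-Hochberg adjusted p below 0.05). The interaction passed for 1 gene (0.00911%), the linker histone gene Hist1h1e, whose response was lower in KO, and for 0 genes in the other direction. At an unadjusted p below 0.05 there were 575 genes (5.24%). The median interaction was -0.01, with quartiles of -0.18 and 0.16, and its median standard error (SE) was 0.247. Of the genes called in WT, 77.6% were called with the same direction in KO, and of those called in KO, 78.2% were called in WT, which are the same 3469 genes. The remaining calls were 1000 genes in WT only and 965 in KO only, and none of these passed the interaction. Of the 1000, 926 had the same sign in KO, with a median absolute change of 0.56 in WT and 0.25 in KO. Of the 965, 898 had the same sign in WT, with 0.57 in KO and 0.26 in WT. A call in 1 genotype alone was therefore not a shown difference in response. Directions are relative to the scaling. With library totals only, 70.9% of the calls in WT and 72.6% of those in KO were higher, against 49.6% and 48.0% here, and the median response of all genes was 0.21 and 0.24.

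**Figure D1:**
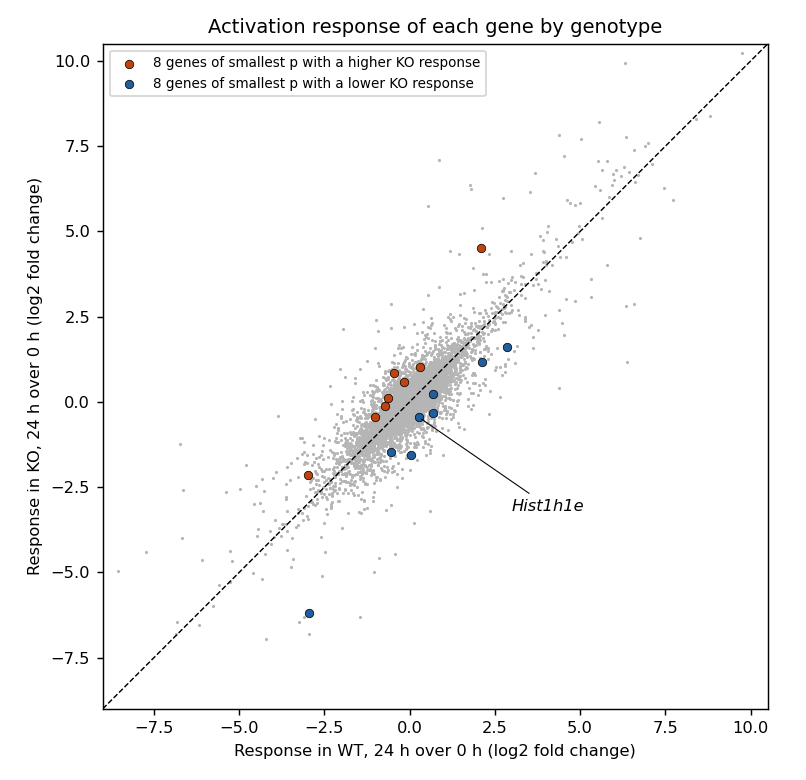
Each grey point is 1 of the 10981 tested genes, placed by its log2 response to 24 h of stimulation in WT (horizontal) and in KO (vertical), and the dashed line marks equal responses. Orange and blue points are the 8 genes per direction with the smallest interaction p. Among them Hist1h1e, at 0.26 in WT and -0.44 in KO, is the 1 gene that passed.

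Hist1h1e rose on stimulation in WT and fell in KO. It encodes a linker histone of the H1 family, which binds the DNA between nucleosomes and compacts chromatin. Its libraries had 132, 122 and 149.6 CPM at 0 h and 163, 154 and 168 CPM at 24 h in WT, against 171, 155 and 165 CPM at 0 h and 107, 133 and 122 CPM at 24 h in KO. The KO libraries lay above every WT library at 0 h and below every WT library at 24 h. Over all tested genes the libraries of the genotypes did not overlap in 12.4% at 0 h and in 12.9% at 24 h. Group means went from 134 ± 14 to 161 ± 7.07 CPM in WT and from 164 ± 8.07 to 121 ± 13.1 CPM in KO. The log2 response was 0.26 in WT (SE 0.094, edgeR adjusted p = 0.022) and -0.44 in KO (SE 0.0958, edgeR adjusted p = 0.000186). It was the 1 gene of the 3470 called in both genotypes whose directions were opposite. The interaction was -0.71 (SE 0.134, 95% interval -0.98 to -0.44, edgeR adjusted p = 0.0442). KO differed from WT by 0.28 at 0 h, which did not pass (edgeR adjusted p = 0.288), and by -0.42 at 24 h, which passed (edgeR adjusted p = 0.0291). Between genotypes 0.346% of all tested genes passed at 0 h and 0.273% at 24 h, and 0.0911% of all tested genes passed as lower in KO at 24 h. The call was close to the threshold and was lost under several settings. With all libraries kept, its adjusted p was 0.0584 with RLE size factors, 0.0597 without Rn45s, 0.0785 with library totals only, 0.0835 with the replicate number as a block and 0.109 without robust dispersion. It was 0.015 in DESeq2, and 0.0156 after thinning all libraries to the depth of the shallowest. When 1 library was left out in turn it passed in 2 of 12 refits, those without WT 0 h replicate 3 and without KO 24 h replicate 2, with adjusted p from 0.0139 to 0.256 and a log2 value below 0 in all 12. In the GENCODE mouse annotation its exons share bases with Hist1h2be and Gm11398, and histone genes have close copies, so some of its reads are uncertain.

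The other linker histones had interactions below 0 too, and none of them passed. H1f0, the linker histone of non-dividing cells, had 43.8, 31 and 36.8 CPM at 0 h and 22.5, 24.5 and 28.9 CPM at 24 h in WT, against 50.7, 54.9 and 47.6 CPM at 0 h and 16.8, 21.8 and 16.9 CPM at 24 h in KO. Its KO libraries were all higher than WT at 0 h and all lower at 24 h, the same order as for Hist1h1e. It fell in both genotypes, by 0.55 on the log2 scale in WT and by 1.45 in KO, and its interaction was -0.91 (95% interval -1.35 to -0.46) (edgeR adjusted p = 0.305). Hist1h1b had 22.2, 19.3 and 23 CPM at 0 h and 7.43, 4.48 and 9.07 CPM at 24 h in WT, against 21.2, 14.8 and 24.9 CPM at 0 h and 4.21, 3.49 and 3.48 CPM at 24 h in KO, with the genotypes overlapping at 0 h and every KO library below WT at 24 h. It fell in both genotypes and its interaction was -0.79 (95% interval -1.54 to -0.05). Hist1h1d, at 62.2 ± 1.64 CPM in WT 24 h and 46.8 ± 5.54 in KO 24 h, had an interaction of -0.40 (95% interval -0.74 to -0.06). Those of Hist1h1c and Hist1h1a were -0.23 (95% interval -0.51 to 0.05) and -0.21 (95% interval -0.95 to 0.54). Hist1h1c and Hist1h1d fall outside the rule for named genes and are given so that all 6 tested linker histones are shown. Of these 6, 1 rose and 4 fell in WT, and 0 rose and 5 fell in KO. For all tested genes these shares were 20.2% and 20.5% in WT and 19.4% and 21% in KO. An unadjusted interaction p below 0.05 was found in 4 of the 6, against 5.24% of all genes. These 4 include Hist1h1e and H1f0, which were named for their small p, so the count is not independent of that choice.

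The median interaction of core histone genes was below 0 as well, with little precision. Most histone RNAs end in a stem-loop in place of a poly(A) tail and are made in S phase, and libraries of total RNA can hold them. Of 50 tested core histone genes named by symbol in the replication-dependent clusters, 37 had an interaction below 0, the median was -0.27 and 0 passed, while 48.6% of all tested genes lay above 0. The 6 linker histones and 36 to 37 of the core histones lay below 0 under each scaling tried. By kind, 12 of 13 H2A genes, 8 of 15 H2B genes, 8 of 11 H3 genes and 9 of 11 H4 genes lay below 0, with medians of -0.54, -0.12, -0.34 and -0.27. Of the 50 genes, 7 had an unadjusted p below 0.05, and the 95% interval of 19 lay within 1 log2 unit of 0. For all tested genes these shares were 5.24% and 67.8%. These families were counted after the Hist1h1e result was seen. The list of DNA replication and mitosis genes stood at a median interaction of -0.11 over 34 members, 8 of them above 0, and Mki67, a marker of dividing cells, at -0.71 (95% interval -1.67 to 0.25). Of these 34 genes 8 rose and 9 fell in WT, and 6 rose and 11 fell in KO. Of all tested genes 20.2% rose and 20.5% fell in WT, and 19.4% rose and 21% fell in KO. Ccna2 and E2f2, which serve DNA replication, fell in both, with Ccna2 at a log2 response of -1.89 in WT and -2.07 in KO and E2f2 at -2.08 in WT and -2.03 in KO. The part of cell cycle position in the histone values was not tested.

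Promoters of linker histones are shown as a description of sequence that the interaction test did not use. They are the 250 bases before the annotated start in RefSeq (GRCm38.p6), for Hist1h1e (H1f4 in RefSeq, chr13:23622559-23622808, minus strand), Hist1h1b (H1f5, chr13:21780626-21780875, minus strand) and H1f0 (chr15:79027962-79028211, plus strand). Capitals mark the motifs searched on both strands, AAACACA (an element known upstream of H1 genes), CCAAT and TATAAA, of which none overlapped another.
Hist1h1e: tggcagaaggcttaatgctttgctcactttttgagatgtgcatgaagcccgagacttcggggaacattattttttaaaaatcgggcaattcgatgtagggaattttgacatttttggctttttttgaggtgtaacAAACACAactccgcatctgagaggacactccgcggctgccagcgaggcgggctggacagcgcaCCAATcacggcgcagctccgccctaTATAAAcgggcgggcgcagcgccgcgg
Hist1h1b: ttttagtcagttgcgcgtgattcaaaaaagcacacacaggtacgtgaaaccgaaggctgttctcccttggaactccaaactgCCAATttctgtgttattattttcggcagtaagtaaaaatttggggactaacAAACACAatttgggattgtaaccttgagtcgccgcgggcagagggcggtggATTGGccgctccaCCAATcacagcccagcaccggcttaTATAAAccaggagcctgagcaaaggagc
H1f0: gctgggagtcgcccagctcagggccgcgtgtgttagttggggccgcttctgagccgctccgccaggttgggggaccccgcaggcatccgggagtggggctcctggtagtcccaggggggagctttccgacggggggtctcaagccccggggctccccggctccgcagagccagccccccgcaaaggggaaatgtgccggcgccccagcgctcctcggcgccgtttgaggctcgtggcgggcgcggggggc
In Hist1h1e the AAACACA element lay 115 to 109 bases before the start, CCAAT 52 to 48 and TATAAA 27 to 22 bases before it. In Hist1h1b the same elements stood at 117 to 111, 53 to 49 and 28 to 23 bases, with further CCAAT matches. The H1f0 window held none of these motifs, and H1f0 lies on another chromosome than the other linker histones tested. Hist1h1d held all of them, with a TATAAA 26 to 21 bases before the start, while Hist1h1c lacked TATAAA and Hist1h1a lacked AAACACA. Over all 32851 RefSeq windows of this length, 6.25% held AAACACA, 33.8% CCAAT, 12.4% TATAAA and 0.39% all of them. A match describes the letters only, and the part of these motifs in the interactions was not tested.

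Besides Hist1h1e, the genes of smallest p with a lower response in KO included regulators and surface proteins of lymphocytes, and none passed. Crem encodes a modulator of cyclic AMP responses. It had 13.2, 8.59 and 12.8 CPM at 0 h and 56.1, 43.6 and 52 CPM at 24 h in WT, against 14.5, 15.5 and 9.98 CPM at 0 h and 28.4, 34.9 and 28.4 CPM at 24 h in KO, with the genotypes overlapping at 0 h and every KO library below WT at 24 h. It rose in both genotypes, by 2.13 in WT and 1.19 in KO on the log2 scale, and its interaction was -0.95 (95% interval -1.46 to -0.43) (edgeR adjusted p = 0.477). At 24 h its level in KO was lower by a tested difference of -0.72 (edgeR adjusted p = 0.0359). Cd53, a tetraspanin of white blood cells, had 418, 474 and 467 CPM at 0 h and 678, 712 and 776 CPM at 24 h in WT, against 505, 575 and 537 CPM at 0 h and 624, 689 and 579 CPM at 24 h in KO. It rose in both genotypes and had an interaction of -0.44 (95% interval -0.69 to -0.20), with the KO libraries higher at 0 h and overlapping WT at 24 h. Tbkbp1, an adaptor of the kinase TBK1, went from 3.64 ± 0.513 to 26.5 ± 1.07 CPM in WT and from 5.92 ± 1.44 to 18.5 ± 5.16 CPM in KO, with an interaction of -1.24 (95% interval -1.96 to -0.53). Prune, a phosphoesterase gene, was at -1.02 (95% interval -1.53 to -0.50), and the small nucleolar RNA host gene Snhg9 at -1.60 (95% interval -2.53 to -0.66). Cd72, which encodes a surface protein of B cells, had 233 reads in KO 0 h and 2 in KO 24 h, a ratio of 0.0118 (95% counting interval 0.00142 to 0.043). Its level was 1.02 ± 0.226 CPM in WT 24 h. The B cell markers summed to 6.0 to 8.04 CPM in WT 24 h and 4.39 to 11.4 CPM in KO 24 h. The 5 tested B cell markers had a median interaction of 1.44, 4 of them above 0, against -3.26 for Cd72. Their part in the Cd72 value was not tested. The edgeR adjusted p of the named genes of this direction besides Hist1h1e ranged from 0.305 to 0.52. Exon bases are shared by Crem with Gm6225, H1f0 with Gm49544, Snhg9 with Rps2 and Cd72 with Tesk1, so these values are uncertain without strand.

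No gene with a higher response in KO passed either. Nfkbid lies on chromosome 7, as do Sirt2 and, in this direction, Fbxo17 and Utf1. The part of this location in their values was not tested. Nfkbid encodes a nuclear regulator of NF-kappaB that is made on T cell receptor signals. Its libraries had 91.6, 89.2 and 77.3 CPM at 0 h and 99.9, 99.9 and 121 CPM at 24 h in WT, against 41.9, 52.3 and 52.5 CPM at 0 h and 85.8, 101 and 109 CPM at 24 h in KO. The KO libraries were lowest at 0 h, where they did not overlap WT, and the genotypes overlapped at 24 h. Nfkbid rose in both genotypes, by 0.32 in WT and 1.02 in KO on the log2 scale, and its interaction was 0.70 (95% interval 0.38 to 1.02) (SE 0.16, edgeR adjusted p = 0.305). The difference between genotypes was -0.82 at 0 h (edgeR adjusted p = 1.62e-05) and -0.12 at 24 h, which did not pass. Ifi27l2a, an interferon-induced gene, showed the other arrangement, with 161, 138 and 152 CPM at 0 h and 93.8, 81.6 and 99.6 CPM at 24 h in WT, against 179, 135 and 156 CPM at 0 h and 127, 150.3 and 161 CPM at 24 h in KO. The genotypes overlapped at 0 h, and at 24 h every KO library lay above WT. It fell in WT (log2 -0.72), while the KO value of -0.11 did not pass, and its interaction was 0.61 (95% interval 0.31 to 0.91) (edgeR adjusted p = 0.305).

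Other genes of this direction varied in which time carried the difference. Arhgef11, a guanine nucleotide exchange factor gene, had 62, 66.4 and 56.7 CPM at 0 h and 35.8, 41.4 and 41.4 CPM at 24 h in WT, against 47.1, 49.7 and 41.2 CPM at 0 h and 53.4, 45.8 and 49.5 CPM at 24 h in KO, so that KO was below WT at 0 h and above it at 24 h without overlap at either time. Its interaction was 0.74 (95% interval 0.39 to 1.09), and it shares exon bases with Lrrc71. Iqgap2, a scaffold protein gene, fell in both genotypes, by 1.02 on the log2 scale in WT and by 0.44 in KO, with an interaction of 0.58 (95% interval 0.30 to 0.86). Its libraries lay within 55.6 to 56.8 CPM in WT 24 h and 71.5 to 71.8 CPM in KO 24 h. Fbxo17, an F-box gene close to Sirt2 on chromosome 7, had 4.5, 3.05 and 4.51 CPM at 0 h and 2.61, 1.95 and 4.19 CPM at 24 h in WT, against 20.8, 19.5 and 25.2 CPM at 0 h and 39.2, 41.6 and 37.8 CPM at 24 h in KO. It was higher in KO at both times, did not pass over time in WT (log2 -0.47), rose in KO (log2 0.86), and had an interaction of 1.33 (95% interval 0.62 to 2.04) (edgeR adjusted p = 0.422). Sit1, an adaptor that restrains T cell receptor signals, fell in both genotypes (-2.97 in WT and -2.13 in KO on the log2 scale) and was at 0.84 (95% interval 0.40 to 1.28). Fbxo42 was at 0.73 (95% interval 0.34 to 1.11) and Utf1, a transcription factor gene with under 4 CPM in every 0 h library, at 2.43 (95% interval 1.10 to 3.76). The edgeR adjusted p of the 8 named genes of this direction ranged from 0.305 to 0.422.

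**Figure D2:**
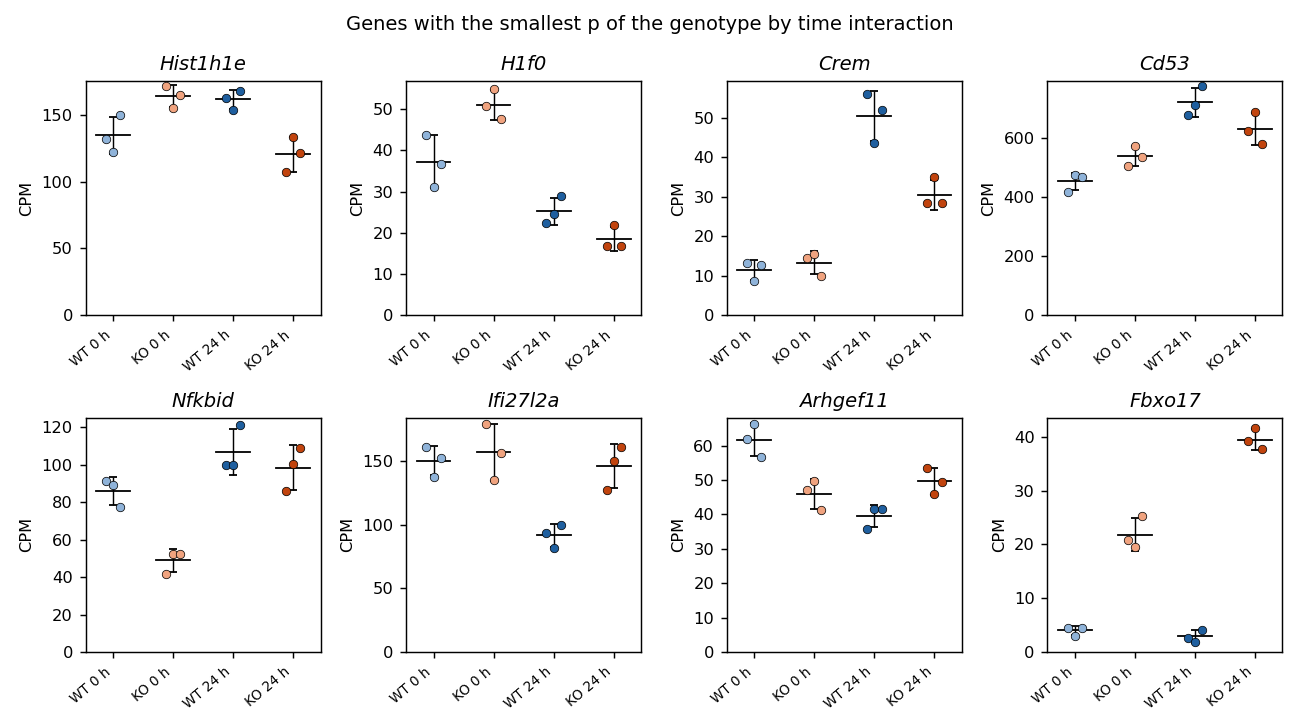
CPM of 8 of the genes with the smallest interaction p, with points for the 3 libraries of a group and bars for the mean ± SD. Hist1h1e, H1f0 and Arhgef11 change the order of the genotypes between 0 h and 24 h without overlap, Nfkbid differs at 0 h, Crem and Ifi27l2a differ at 24 h, Cd53 differs at 0 h, and Fbxo17 is higher in KO at both times.

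Of 29 tested genes of the early T cell receptor response 17 rose and 10 fell in each genotype, and Irf4 and Myc started lower in KO. Irf4, a transcription factor whose level follows the strength of the receptor signal, had 54.2, 45.3 and 46.1 CPM at 0 h and 760.1, 757 and 786 CPM at 24 h in WT, against 32.6, 35.3 and 41 CPM at 0 h and 587, 644 and 634 CPM at 24 h in KO. Each KO library lay below each WT library at both times. It was lower in KO at 0 h by a tested difference of -0.42 (edgeR adjusted p = 0.0494). Irf4 rose by 3.99 in WT and 4.11 in KO on the log2 scale, and its interaction was 0.12 (95% interval -0.15 to 0.39). Myc, a driver of growth, had 317, 259 and 299.9 CPM at 0 h and 669, 612 and 734 CPM at 24 h in WT, against 256, 177 and 185 CPM at 0 h and 594, 669 and 651 CPM at 24 h in KO, with KO lower at 0 h (log2 -0.50, edgeR adjusted p = 0.0236) and overlapping at 24 h. Its response was 1.20 in WT and 1.63 in KO and its interaction 0.42 (95% interval 0.12 to 0.73), which did not pass (edgeR adjusted p = 0.84). Nr4a1, an orphan nuclear receptor induced by the receptor signal, rose by 1.72 and 1.86 with an interaction of 0.15 (95% interval -0.12 to 0.41). Egr2, a zinc finger factor, was at 0.12 (95% interval -0.52 to 0.75), and the surface gene Cd69 at 0.08 (95% interval -0.18 to 0.35). Fos and Fosb, immediate-early genes, were high in fresh cells and fell in both genotypes (-5.26 in WT and -5.29 in KO for Fos). The counts of this list stand against 20.2% of all genes higher and 20.5% lower in WT, and 19.4% higher and 21% lower in KO. Over all tested genes 48.6% of interactions lay above 0 and 5.24% had an unadjusted p below 0.05. In this list 21 members lay above 0, 11 had such a p and 0 passed. The median interaction was 0.23, and the median difference between genotypes was -0.34 at 0 h and -0.11 at 24 h.

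**Figure D3:**
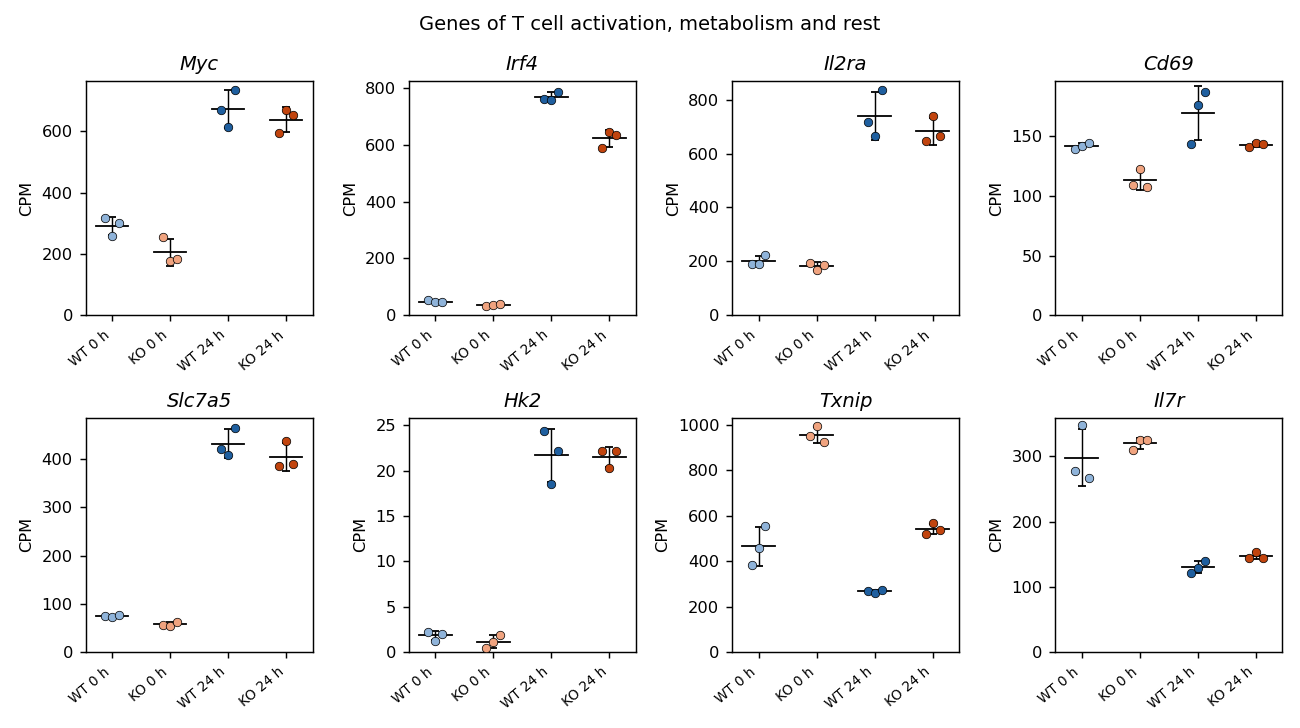
CPM of 8 genes of activation, metabolism and rest, with points for libraries and bars for the mean ± SD. Irf4 and Txnip keep the order of the genotypes at both times, Myc and Slc7a5 are lower in KO at 0 h and overlap at 24 h, and Il2ra and Hk2 overlap at both.

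Most genes of interleukin 2 signalling rose in both genotypes. Il2ra, which encodes the receptor's alpha chain (CD25), had 192, 191 and 223 CPM at 0 h and 718, 663 and 835 CPM at 24 h in WT, against 195, 168 and 187 CPM at 0 h and 645, 739 and 664 CPM at 24 h in KO, with overlap at both times. Its interaction was 0.03 (95% interval -0.23 to 0.29), so that a difference in response of 1 log2 unit lay outside the interval. Cish, a feedback inhibitor induced by cytokine receptors, had 57.2, 60.5 and 66.6 CPM at 0 h and 201, 190.5 and 251 CPM at 24 h in WT, against 43.2, 46.3 and 40.3 CPM at 0 h and 189, 249.9 and 209 CPM at 24 h in KO. It was lower in KO at 0 h (log2 -0.51, edgeR adjusted p = 0.0265), overlapped at 24 h and had an interaction of 0.52 (95% interval 0.21 to 0.83) (edgeR adjusted p = 0.538). Socs1 was at 0.18 (95% interval -0.17 to 0.54). Il2 itself was low, with 3.42, 4.59 and 4.74 CPM in WT 24 h and 6.77, 6.47 and 6.72 in KO 24 h, without overlap, and its interaction had an interval of -2.93 to 1.28. Of the 19 tested genes of this list 14 rose in WT and 15 in KO. Their interaction was above 0 in 15, 9 had an unadjusted p below 0.05 and 0 passed. Among all tested genes 20.2% rose in WT, 19.4% rose in KO, 48.6% had an interaction above 0 and 5.24% such a p. The list median was 0.18.

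Secreted and surface genes gave wide or small differences. The chemokine genes Ccl1 and Ccl22 went from under 1 CPM in every 0 h library to 42.4, 45.2 and 71.6 CPM in WT 24 h and 56.7, 70.1 and 66.2 in KO 24 h for Ccl1. Ccl22 had 0 reads in both 0 h groups and 339 and 356 reads in WT 24 h and KO 24 h, so no difference of its responses can be given. The interaction of Ccl1 was 0.62 (95% interval -1.03 to 2.27) and that of Ifng 0.42 (95% interval -1.29 to 2.13). Of 17 tested cytokine and chemokine genes 0 passed, and the interval of 4 lay within 1 log2 unit of 0, against 67.8% of all genes. Among costimulatory genes (15 tested, median -0.18) Tnfsf8, which encodes the CD30 ligand, had 112, 122 and 135 CPM in WT 24 h and 105, 94 and 109 in KO 24 h and an interaction of -0.49 (95% interval -0.88 to -0.09). Tnfrsf9, which encodes 4-1BB, was at 0.07 (95% interval -0.25 to 0.39), and Tnfrsf4, which encodes OX40, at 0.21 (95% interval -0.12 to 0.53). Inhibitory receptors and ligands had a median of -0.22 over 15 members. Of these, the PD-L1 gene Cd274 rose from 40.2 ± 1.31 to 421 ± 8.49 CPM in WT and from 40.3 ± 5.32 to 447 ± 31.9 CPM in KO, with an interaction of 0.08 (95% interval -0.19 to 0.35). Costimulatory genes had 5 members and inhibitory ones 2 with an unadjusted p below 0.05, against 5.24% of all genes. Of either list 0 passed. Helper lineage factors had 0 of 18 members below that unadjusted p and a median of -0.01.

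Interferon-stimulated genes were strongly raised in both genotypes. Gbp2, a guanylate-binding protein gene, went from 52.2 ± 8 to 1582 ± 251 CPM in WT and from 57.5 ± 8.53 to 1762 ± 116 CPM in KO, and its interaction was 0.02 (95% interval -0.30 to 0.34). Gbp5 was at -0.00 (95% interval -0.36 to 0.35) and Oasl2 at 0.44 (95% interval -0.47 to 1.34). Genes of the Gbp family have close copies, so their reads are uncertain. Of 33 tested members 22 rose and 3 fell in WT, and 25 rose and 1 fell in KO. For all genes these shares were 20.2% and 20.5% in WT and 19.4% and 21% in KO. An interaction above 0 was found in 23 members, against 48.6% of all genes. An unadjusted p below 0.05 was found in 9 members, against 5.24% of all genes. The median interaction was 0.07, that of all tested genes -0.01, and 0 members passed.

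Most ribosome biogenesis, tRNA synthetase and translation initiation genes rose in both genotypes. Of 32 ribosome biogenesis genes 29 rose in WT and 30 in KO and none fell, and the median interaction was -0.01. The interval of each of the 32 lay within 1 log2 unit of 0. Nop56, a nucleolar protein gene, had 91.6, 88.5 and 119.9 CPM at 0 h and 259, 221 and 255 CPM at 24 h in WT, against 95.8, 93.6 and 100.4 CPM at 0 h and 228, 257 and 231 CPM at 24 h in KO, and its interaction was 0.02 (95% interval -0.26 to 0.30). Of 20 tRNA synthetase genes 16 rose in WT and 15 in KO, none fell, and all 20 intervals lay within 1 log2 unit of 0. Wars, the tryptophanyl-tRNA synthetase gene, had 290.1, 304 and 304 CPM in WT 24 h and 380.2, 383 and 408 in KO 24 h without overlap, and an interaction of 0.36 (95% interval 0.09 to 0.63) (edgeR adjusted p = 0.84). Of 20 translation initiation genes 16 rose in each genotype, 1 fell in WT, 19 intervals lay within 1 log2 unit of 0 and the median interaction was -0.04, with Eif4ebp1, which encodes an inhibitor of the cap-binding factor, at 0.61 (95% interval 0.06 to 1.15). Of these lists 1, 3 and 1 members had an unadjusted interaction p below 0.05, and 0 passed. In the whole set of tested genes 20.2% rose in WT, 19.4% rose in KO and 5.24% had such a p. The interval lay within 1 log2 unit of 0 for 67.8% of all genes. For genes with a mean of at least 20 CPM in a group it did so for 96.4%.

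Metabolic genes gave no passing interaction. The amino acid transporter gene Slc7a5 had 73.8, 71.6 and 77.2 CPM at 0 h and 422, 409 and 465 CPM at 24 h in WT, against 56.3, 54.9 and 62.9 CPM at 0 h and 386, 437 and 390.1 CPM at 24 h in KO. KO was lower than WT at 0 h without overlap and overlapped it at 24 h, and the interaction was 0.27 (95% interval 0.01 to 0.52) (edgeR adjusted p = 0.932). Hk2, which encodes the hexokinase induced on activation, rose in both genotypes and had a wide interval at 0.80 (95% interval -0.21 to 1.81). Ldha, the lactate dehydrogenase gene, was at -0.14 (95% interval -0.37 to 0.10), and the glucose transporter gene Slc2a1 at -0.07 (95% interval -0.48 to 0.33). Of 25 glycolysis genes 1 had an unadjusted p below 0.05, against 5.24% of all genes, and the list median was 0.03. For amino acid transport and glutamine genes the count was 3 of 20 (median 0.11), for one-carbon and nucleotide genes 3 of 30 (median -0.01). The citric acid cycle list had 2 of 26, and fatty acid oxidation and sterol and fatty acid synthesis had 0 of 24 each. The 74 respiratory chain and ATP synthase subunits had a median of -0.06 with 27 above 0 and 0 below that unadjusted p. Of their intervals 72 lay within 1 log2 unit of 0, against 67.8% of all genes. Shmt2 and Mthfd2, enzyme genes of mitochondrial one-carbon metabolism, were at 0.11 (95% interval -0.16 to 0.39) and 0.34 (95% interval 0.00 to 0.67). Citric acid cycle, fatty acid oxidation and sterol and fatty acid synthesis genes had medians of 0.0045, -0.06 and -0.08. Cpt1a, which carries fatty acids into mitochondria, fell in both genotypes by 1.17 on the log2 scale and was at 0.01 (95% interval -0.45 to 0.46).

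Txnip and Arrdc4, alpha-arrestin genes that restrain glucose uptake, differed between genotypes at both times with no passing interaction. Txnip had 382, 457 and 555 CPM at 0 h and 271, 259 and 271 CPM at 24 h in WT, against 950.4, 995 and 923 CPM at 0 h and 521, 568 and 536 CPM at 24 h in KO. Every KO library was above every WT library at each time, Txnip fell on stimulation by 0.80 in WT and 0.82 in KO on the log2 scale, and the interaction was -0.02 (95% interval -0.28 to 0.25). Arrdc4 had 0.346, 1.25 and 3.13 CPM at 0 h and 2.61, 2.41 and 0.977 CPM at 24 h in WT, against 33.6, 35 and 32.2 CPM at 0 h and 23.2, 22.4 and 19.7 CPM at 24 h in KO. Its interaction of -0.84 had an interval of -1.83 to 0.14, since WT held few reads. Among sirtuins and NAD-making enzymes, Nampt rose in both genotypes and was at 0.09 (95% interval -0.23 to 0.41). Cd38, an NAD-consuming enzyme gene, had 18, 14.5 and 15.5 CPM at 0 h and 4.22, 2.64 and 1.81 CPM at 24 h in WT, against 12.5, 11.8 and 11.9 CPM at 0 h and 7.87, 3.84 and 5.72 CPM at 24 h in KO and an interaction of 1.46 (95% interval 0.62 to 2.30) (edgeR adjusted p = 0.52). Of 14 tested genes of this list 0 passed.

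Genes of rest were turned down in both genotypes. Of 29 tested genes of naive and resting T cells 21 fell in WT and 22 in KO, 4 and 3 rose, and the median interaction was -0.01. Among all tested genes 20.5% fell in WT and 21% in KO. The interval lay within 1 log2 unit of 0 for 28 of the 29, against 67.8% of all genes. Il7r, the interleukin 7 receptor gene, had 278, 348 and 267 CPM at 0 h and 121, 129 and 139.8 CPM at 24 h in WT, against 309.7, 325 and 325 CPM at 0 h and 145, 154 and 145 CPM at 24 h in KO and an interaction of 0.08 (95% interval -0.18 to 0.34). Klf2, a factor of T cell rest and homing, was at 0.07 (95% interval -0.17 to 0.31). Dtx1, a Notch pathway gene, fell from 596 ± 66.8 to 11.8 ± 5.68 CPM in WT and from 639 ± 22.6 to 15.3 ± 0.212 CPM in KO, and was at 0.22 (95% interval -0.35 to 0.80). Of 22 genes of the receptor complex and its proximal signalling all intervals lay within 1 log2 unit of 0, with Cd3g at -0.03 (95% interval -0.26 to 0.21) and Cd4 at -0.07 (95% interval -0.36 to 0.21). Cd8b1, a CD8 T cell marker, was at -0.49 (95% interval -1.06 to 0.09).

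**Figure D4:**
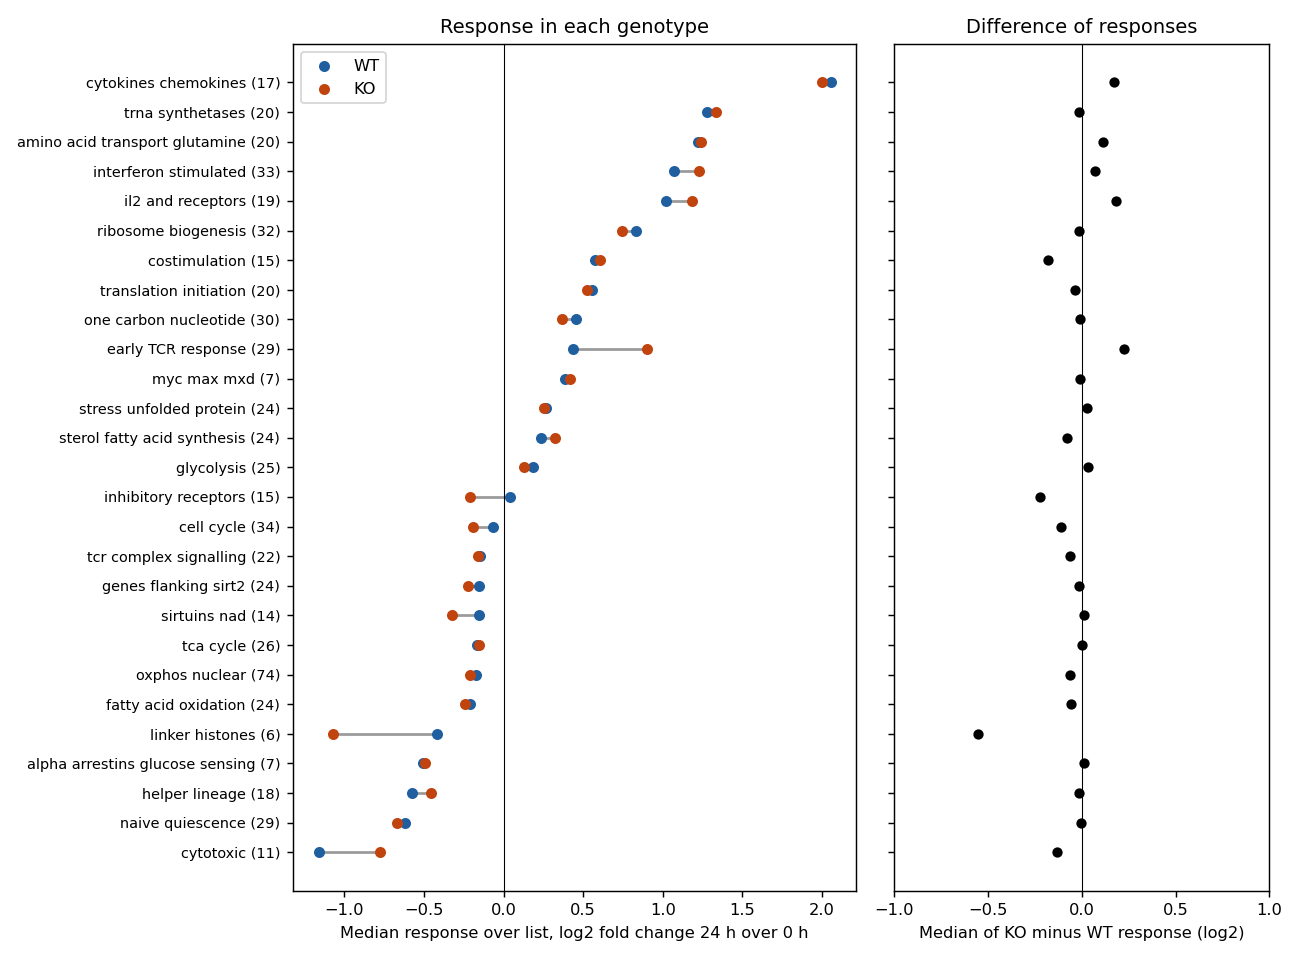
Left, the median log2 response over the tested members of each gene list (number in brackets) in WT and KO, ordered by the WT value. Right, the median of the gene-by-gene difference of responses, which is 0.23 for early receptor genes and -0.55 for the 6 linker histones and between -0.22 and 0.18 for all others. A list median is a description with no test, and 9 of the 27 list medians, each of 0.0372 or smaller in size, changed sign under another scaling.

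The size of the response as a whole was compared by 1 value per library. The activation score was the mean log2 CPM of 656 genes that were at least 1 log2 unit higher at 24 h than at 0 h over all libraries, minus that of 851 genes at least as much lower. The libraries scored -1.61, -1.58 and -1.55 in WT 0 h and -1.72, -1.64 and -1.75 in KO 0 h, and 1.89, 1.80 and 1.83 in WT 24 h and 1.88, 1.71 and 1.88 in KO 24 h. At 0 h the 3 KO libraries lay below the 3 WT libraries, and at 24 h the genotypes overlapped. The response was 3.42 in WT and 3.52 in KO, which is 103% of WT. The difference of 0.10 did not pass (two-sided exact permutation of genotype within time, 400 arrangements, p = 0.235), and the pooled SD between libraries was 0.0629. The smallest p that this test can give is 0.005. For a difference that lies at only 1 of the times it has little more power than a comparison of 3 against 3 libraries, whose smallest p is 0.1. Without KO 24 h replicate 2, the library with the lowest 24 h score, the difference was 0.19 (exact permutation p = 0.01), and over all 12 refits with 1 library left out it lay between 0.08 and 0.19. That single library therefore decides whether the score passes. After thinning all libraries to the depth of the shallowest the difference was 0.0453 (exact permutation p = 0.565).

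Across genes, which are not replicates, the responses of the genotypes had a Pearson r of 0.871 and a standard deviation of 0.946 in WT and 0.974 in KO, a ratio of 1.03. Over the 1615 genes with a mean response of at least 1 log2 unit in either direction, the interaction signed by that direction had a median of 0.0258, and 47.1% of these genes had the smaller response in KO. This median rests on single libraries, with 0.00467 without KO 24 h replicate 1, 0.0148 without WT 0 h replicate 3 and 0.0592 without KO 24 h replicate 2, and it was 0.0157 after thinning to the shallowest library. The 227 genes raised by at least 2 log2 units had a median response of 2.87 in WT and 3.06 in KO. For the 225 genes lowered by as much the medians were -2.60 and -2.57. No gene of either group passed the interaction.

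The precision of the fit sets what could be seen. The 95% interval of the interaction lay within 1 log2 unit of 0 for 7449 of the 10981 genes (67.8%), and for 96.4% of the 6558 genes with a mean of at least 20 CPM in a group. Within 0.5 log2 units it lay for 49.9% of those 6558 genes and for 85.7% of the 2182 genes with a mean of at least 100 CPM. For the 4423 genes with no group mean of 20 CPM the interval lay within 1 log2 unit of 0 in 25.5%. An interval this narrow does not mean an equal response, since that of Hist1h1e (-0.98 to -0.44) lay within 1 log2 unit of 0 too. Nor does it mean that a difference of 1 log2 unit would pass after adjustment. Prune, with 24.4 CPM in WT 24 h, had an interaction of -1.02 and did not pass (edgeR adjusted p = 0.345). Of the 20 genes of the activation panel 15 had an interval within 1 log2 unit of 0, and 2 had an unadjusted p below 0.05, Myc and Slc7a5.

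**Figure D5:**
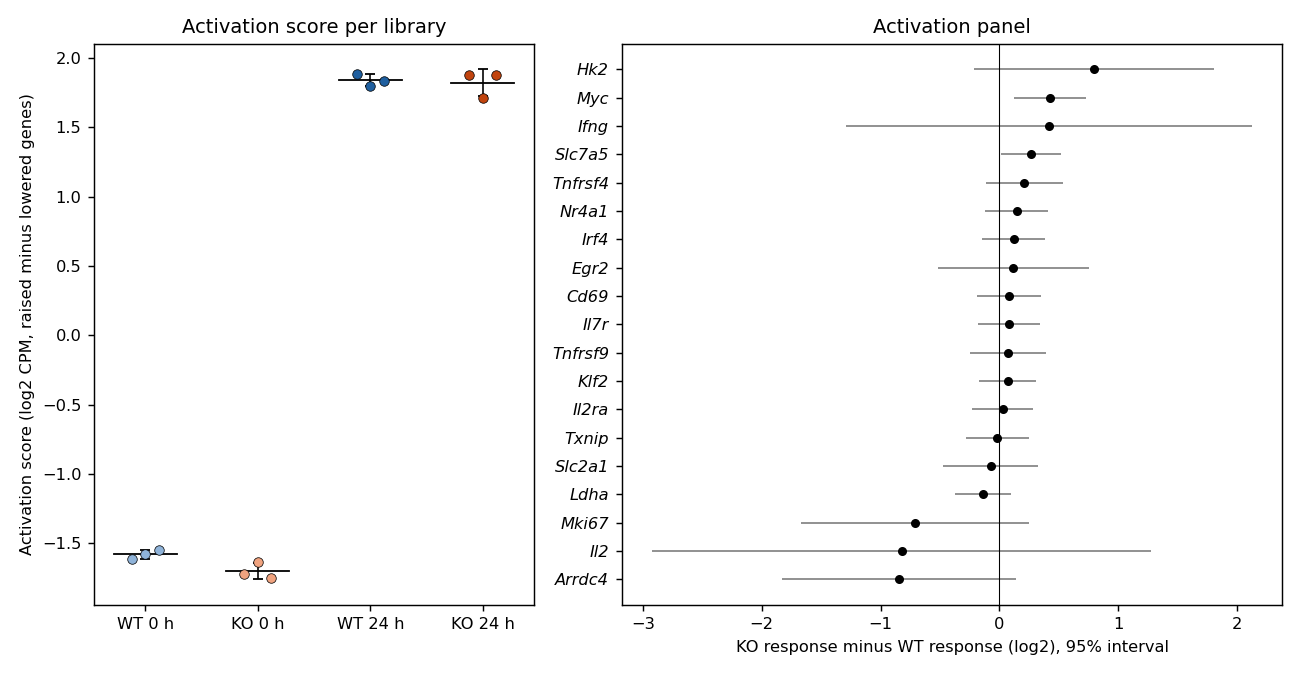
Left, the activation score of each library (points) with the mean ± SD of its group, where KO lies below WT at 0 h and overlaps it at 24 h. Right, the interaction of the panel genes, 1 of them left out, with its 95% interval, from -0.84 for Arrdc4 to 0.80 for Hk2; the intervals of Myc and Slc7a5 leave out 0 before adjustment over all genes.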

How the data were processed

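The deposited files held read counts of genes, 1 table per library. Per the labels' protocols, 100 ng of total RNA per library went into a NuGen Ovation kit with reduction of ribosomal RNA. The submitters' processing notes name STAR 2.6.0c, DESeq and the build hg19, a human build, while the symbols are those of mouse, so that the true build is uncertain. For the counting program, annotation and strand, the answer is: not given in the sources used here. The 5 closing entries that name no gene were left out. They held 22.8% to 35.4% of listed reads as no feature, 0.412% to 0.576% as ambiguous and 25.7% to 30.9% as aligned to several places. Of 23479 genes, 10981 passed filterByExpr (minimum count 10, minimum total 15).

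One fit of the 4 groups, without covariates, was made with edgeR 4.0.16 (R 4.3.3, TMM factors, robust quasi-likelihood test), with Benjamini-Hochberg adjustment over all genes tested and a threshold of 0.05. The SE and 95% interval came from that fit. They were not given for 45 genes with a group at 0 reads. DESeq2 1.42.0 was run as an alternative on the same genes without independent filtering, and the other alternatives are given with their effect in the closing section. The tests were tried on simulated data drawn with the same dispersion for every gene, which real genes do not share. In that trial the score test did not pass for a simulated smaller KO response, so a missed threshold does not show equal responses. The activation score used a prior count of 2 on the log2 scale.

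The members, gene lists and tests were chosen with earlier results of these data known. Named by rule were Sirt2, genes passing the interaction with a mean of 5 CPM in a group, filled to 8 per direction by smallest p, the 6 largest responses per direction with 20 CPM in a group that passed in both genotypes, up to 3 members per list with the largest mean response, and a panel of 20 activation genes. Not every gene so named is described, and 1 gene of the panel is counted but not reported here. Predicted genes and receptor gene segments were not named. Of 129 genes looked up in RefSeq, 122 matched by symbol and 7 by synonym. Promoters came from RefSeq GRCm38.p6 and exon overlaps from the GENCODE mouse annotation.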

Additional observations from a re-analysis of the deposited data

Results flagged for a closer look

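Hist1h1e stood out because the effect of stimulation differed between the genotypes by the test of that difference itself, with an interaction of -0.71 on the log2 scale (edgeR adjusted p = 0.0442). It was the 1 gene of 10981 to do so, and its direction was opposite in WT and KO.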

How the results depend on the processing

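The count of genes with a passing interaction was 1, and it was 0 with RLE size factors, with library totals only, without Rn45s, without robust dispersion and with a replicate block, and 3 with no filter on low counts (Hist1h1e, Ifi27l2a with edgeR adjusted p = 0.0427 and Nfkbid with 0.0379). With 1 library left out it was 0 to 1, and at an unadjusted p below 0.05 the settings gave 496 to 782 genes. Hist1h1e had an adjusted p of 0.0835 with the replicate block. The labels do not say whether a replicate number links 0 h and 24 h cells of 1 mouse. Taken from the data, the numbers were not treated as pairs, since deviations of same-numbered libraries correlated at -0.09 to 0.09 over 18 pairs. Those pairs include libraries of different genotypes, which cannot come from 1 mouse. Between 0 h and 24 h of 1 genotype they were 0.0139, 0.0763 and 0.0934 in WT and 0.0477, -0.00224 and 0.0337 in KO. Differently numbered libraries stood at -0.0866 to 0.0158 in WT and -0.058 to 0.0247 in KO. Pairing within a genotype was not tested on its own, and the block joined WT and KO of the same number. Of the 12 libraries 7 correlated best with their own number out of 3, by the mean over libraries of the other groups, both genotypes included. How many would do so without any link was not worked out, so no pairing is read from this count. The counts of genes called in WT and in KO and the count of genes with an interval within 1 log2 unit of 0 stayed within 1.5 times under each alternative run. The median signed interaction of strongly responding genes lay between 0.00467 and 0.0592 with 1 library left out. With 1 library left out the calls were 3863 to 4628 in WT and 3697 to 4565 in KO. The score difference was 0.0848 to 0.189 with 1 library left out and passed in 1 of 12 such refits. Over 127 named genes, 1 of them called, the alternatives gave 2540 interaction values. Hist1h1e lost its call in 15, the other 2 calls are those named above, 48 values of uncalled genes moved by more than their SE, and 136 values in 51 uncalled genes had the other sign than in the reported fit. Thinning to the shallowest library was chosen after seeing the data. The median half-width of the 95% interval was 0.998 for genes with no group mean of 20 CPM and 0.364 for the others. The parts of depth and of replicate variation in this were not separated. KO 24 h had the fewest reads. The cause of the lost calls was not tested.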
